A study of Mus musculus with 6 samples.

Results

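The genes described here are 34 transcripts of Mueller glia, of retinal astrocytes and of reactive gliosis, the response that these cells mount when the retina is injured. They were taken by symbol from a table of 55450 genes, all 34 were found, and 27 of them had a mean level of at least 1 FPKM (fragments per kilobase of transcript, scaled to the depth of the library) over the 6 libraries and entered the test. RNA of whole retina was sequenced from C57BL/6 mice aged 8 weeks, in 3 libraries labelled Myrf-kd, which the series describes as Myrf +/−, and 3 labelled wild type (WT). The product of Myrf is a transcription factor made as a membrane protein and best known for driving myelin genes in oligodendrocytes, and the labels do not say how the allele was altered. Nor do they say that each library is a separate animal, so the p-values rest on the spread from library to library, part of which may be technical.

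Mueller glia span the whole thickness of the retina and serve its neurons by taking up glutamate, potassium and water, by supplying lipids and by recycling retinoids. Astrocytes lie in the nerve fibre layer with the blood vessels. Under injury both cell types raise intermediate filaments such as Gfap, and cytokines that signal through the shared receptor Il6st activate the transcription factor Stat3, which in turn drives Socs3, Cebpd, Serpina3n, Lcn2 and other acute-phase genes. The comparison of Myrf-kd with WT retinas asks whether these programmes differ with the genotype.

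No member passed the test. Of the 27 tested members 0 had an adjusted p under 0.05 in the quasi-likelihood test of edgeR (adjusted after Benjamini and Hochberg over 13673 genes), where 6 genes (0.0439%) passed in all. Without the filter 0 of 34 members passed, beside 5 of 31233 genes (0.016%), and DESeq2 and limma called 0 of the tested members. An unadjusted edgeR p under 0.05 was reached by Stat3, Cebpd and Mt1, all with lower estimates, or 3 of 27 members against 7.49% of all tested genes (3.73% lower). With Myrf-kd 1 left out that number was 7, beside 9.24% of all tested genes, with Myrf-kd 2 left out it was 2 (5.42% of all), and with Myrf-kd 3 left out it was 4 (6.6% of all). With WT 1 left out it was 1 (8.69% of all), with WT 2 left out it was 1 (4.06% of all), and with WT 3 left out it was 0 (3.84% of all). The 11 Mueller glia markers had ratios of Myrf-kd over WT between 0.914 and 1.10, and Gfap had a ratio of 0.994. The estimates farthest below WT belonged to the metallothioneins Mt1 and Mt2, to Stat3 and to Cebpd, and those farthest above it to Serpina3n and Edn2. The median log2 fold change of the 27 members was −0.05, beside 0.00 over all tested genes, with 9 members estimated higher and 18 lower. In 4 members, or 14.8%, every Myrf-kd library lay below every WT library, and the groups stood apart in 14.6% of all tested genes (7.5% lower and 7.13% higher). Without the filter the shares were 11.8% of the 34 members and 10.6% of 31233 genes. The share of members apart was close to that of all genes.

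**Figure D1:**
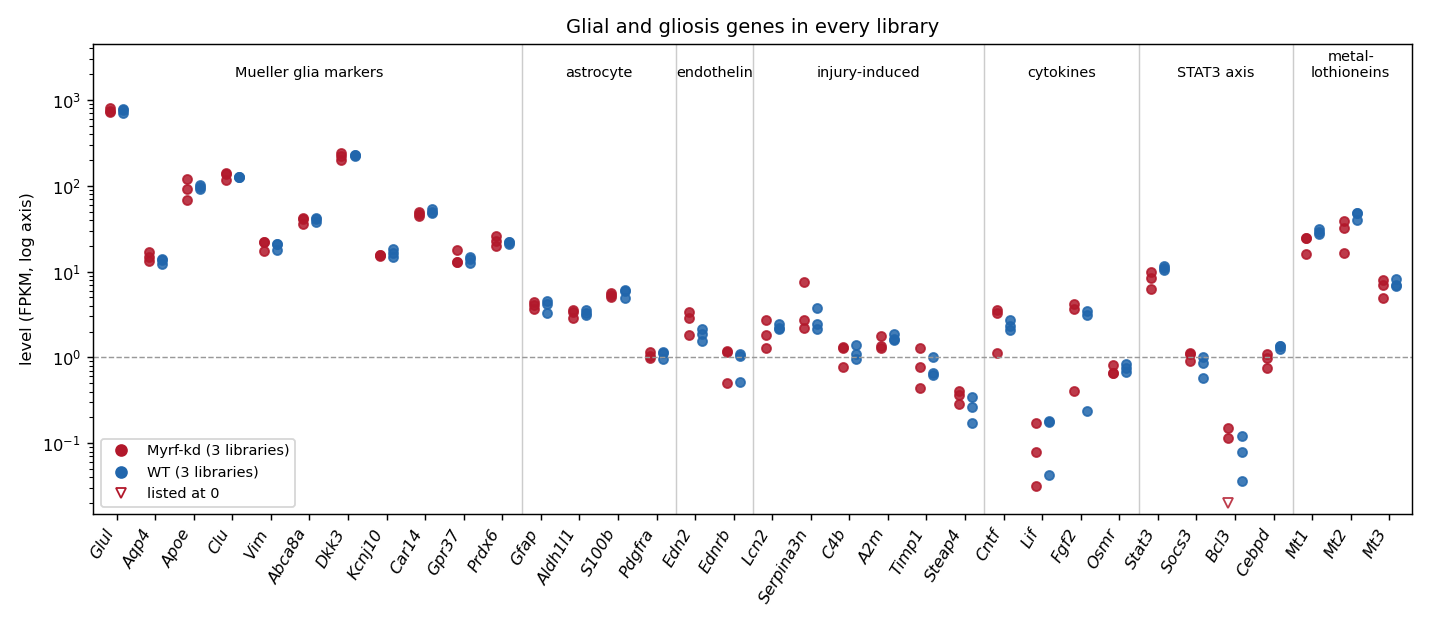
Level of each of the 34 genes in every library, in FPKM on a log axis, grouped by role, with Myrf-kd (red) left of WT (blue) and the filter of 1 FPKM as a dashed line. Mueller glia markers lie between 12.3 and 817 FPKM and the cytokines Lif and the regulator Bcl3 below 0.2 FPKM. Bcl3 was listed at 0 in Myrf-kd 2.

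The libraries held between 50695091 and 70298511 units of estimated counts, with about 4 units per fragment. The tissue carried the rod transcript Gnat1 at 2926 to 3329 FPKM in all 6 libraries, while Olig2, a transcription factor of oligodendrocytes, was listed at 0 throughout. Myrf itself was at 0.337 ± 0.0526 FPKM in Myrf-kd, against 0.406 ± 0.0527 FPKM in WT (SD, n = 3 each), with overlapping groups, so its level does not check the labels. Myrf-kd 3 stood apart: it was the highest or the lowest of the 6 libraries in 50.8% of all tested genes and in 16 of the 27 tested members, against 23.7% to 36.7% of all tested genes for each other library. Myrf-kd 3 and WT 3 carried Xist at 1449 and 1238 CPM (counts relative to the library's total, scaled by TMM, a trimmed mean of ratios between libraries) and the other 4 libraries at 8.16 CPM or less, so these were female and male retinas.

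Markers of tissues next to the retina also differed between the libraries. The 8 cornea and surface epithelium markers summed to 2.18, 3.67 and 3.08 FPKM in Myrf-kd 1, 2 and 3 and to 8.24, 11.4 and 8.74 FPKM in WT 1, 2 and 3. The 10 lens markers summed to 1.2, 0.813 and 36.7 FPKM in Myrf-kd 1, 2 and 3, against 12.2, 8.47 and 14.7 FPKM in WT 1, 2 and 3. Cornea markers were thus lower in every Myrf-kd library, and lens markers were lowest in Myrf-kd 1 and 2 and highest in Myrf-kd 3. The 8 markers of the retinal pigment epithelium, a layer next to the photoreceptors that also expresses Apoe and Clu, summed to 55.7 to 79.4 FPKM in Myrf-kd and to 72.9 to 101 FPKM in WT. The 10 microglial markers summed to 10.8 to 14 FPKM in Myrf-kd and to 12 to 12.4 FPKM in WT.

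**Figure D2:**
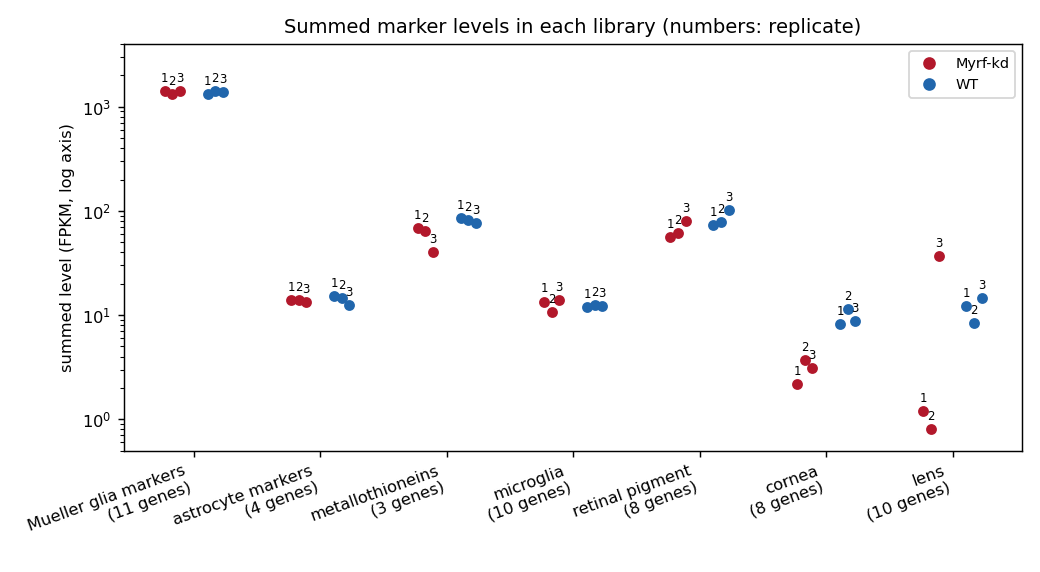
Summed level of 7 marker lists in each library, in FPKM on a log axis, with the replicate number beside each point and Myrf-kd left of WT. The Mueller glia sum lies between 1314 and 1421 FPKM in all 6 libraries, while the cornea sum is at most 3.67 FPKM in Myrf-kd and at least 8.24 FPKM in WT.

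Mueller glia markers were abundant and even. Glul (ENSMUSG00000026473, chromosome 1, 153899944 to 153909723, plus strand, GRCm38) encodes glutamine synthetase, which turns the glutamate that Mueller cells take up into glutamine. Glul ranked 27 of 55450 genes by mean FPKM, with 736, 716 and 817 FPKM in Myrf-kd 1, 2 and 3 and 709.8, 789 and 759 FPKM in WT 1, 2 and 3. The groups overlapped, and the fitted ratio of Myrf-kd over WT was 0.992 with a 95% interval from 0.863 to 1.14. Dkk3, a secreted glycoprotein of the Dickkopf family, ranked 81 with 244, 219.9 and 200.2 FPKM in Myrf-kd against 224, 231 and 226 FPKM in WT. Clu, which encodes the secreted chaperone clusterin, was at 138, 116 and 140.5 FPKM in Myrf-kd and at 125, 128 and 125 FPKM in WT. In both genes the Myrf-kd libraries spread on either side of the WT libraries.

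Apoe, the lipid carrier that Mueller glia secrete, was at 119.6, 91.7 and 69.0 FPKM in Myrf-kd 1, 2 and 3 and at 97.3, 90.9 and 102 FPKM in WT 1, 2 and 3. Its Myrf-kd libraries included both the highest and the lowest value of the 6, and the SD was 25.3 FPKM in Myrf-kd against 5.79 FPKM in WT. The ratio was 0.953 with a 95% interval from 0.702 to 1.29, the widest interval of the 11 markers. Aqp4, the water channel of Mueller endfeet, was at 14.7, 13.2 and 16.8 FPKM in Myrf-kd and at 12.3, 13.8 and 14.1 FPKM in WT. Kcnj10, the inward-rectifying potassium channel that carries potassium away from active neurons, was at 15.6, 15.6 and 15.2 FPKM in Myrf-kd and at 14.9, 18.2 and 16.6 FPKM in WT. Neither channel gene stood apart between the groups.

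Car14, a membrane-bound carbonic anhydrase, was at 50.1, 44.1 and 46.6 FPKM in Myrf-kd and at 50.1, 48.1 and 54.1 FPKM in WT, the lowest ratio of the 11 (0.914, interval 0.807 to 1.04). By edgeR the log2 fold change was −0.13 ± 0.08 (SE) for Car14 and −0.12 ± 0.09 for Kcnj10, with adjusted p-values of 0.703 and 0.746. Vim, the intermediate filament protein of Mueller glia, averaged 20.7 ± 2.83 FPKM in Myrf-kd, against 19.9 ± 1.67 FPKM in WT. Abca8a, a transporter of the ABC family, averaged 39.7 ± 2.98 FPKM in Myrf-kd, against 40.4 ± 1.88 FPKM in WT. Gpr37, a G protein-coupled receptor, averaged 14.6 ± 2.78 FPKM in Myrf-kd, against 13.8 ± 1.1 FPKM in WT, and Prdx6, a peroxidase, averaged 22.8 ± 2.9 FPKM in Myrf-kd, against 21.6 ± 0.745 FPKM in WT (SD, n = 3 each). Over the 11 markers, 5 estimates were higher and 6 lower, all ratios lay between 0.914 and 1.10, and no 95% interval reached below 0.702 or above 1.31. In RNA of whole retina, fewer cells of a type and less RNA per cell cannot be told apart.

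**Figure D3:**
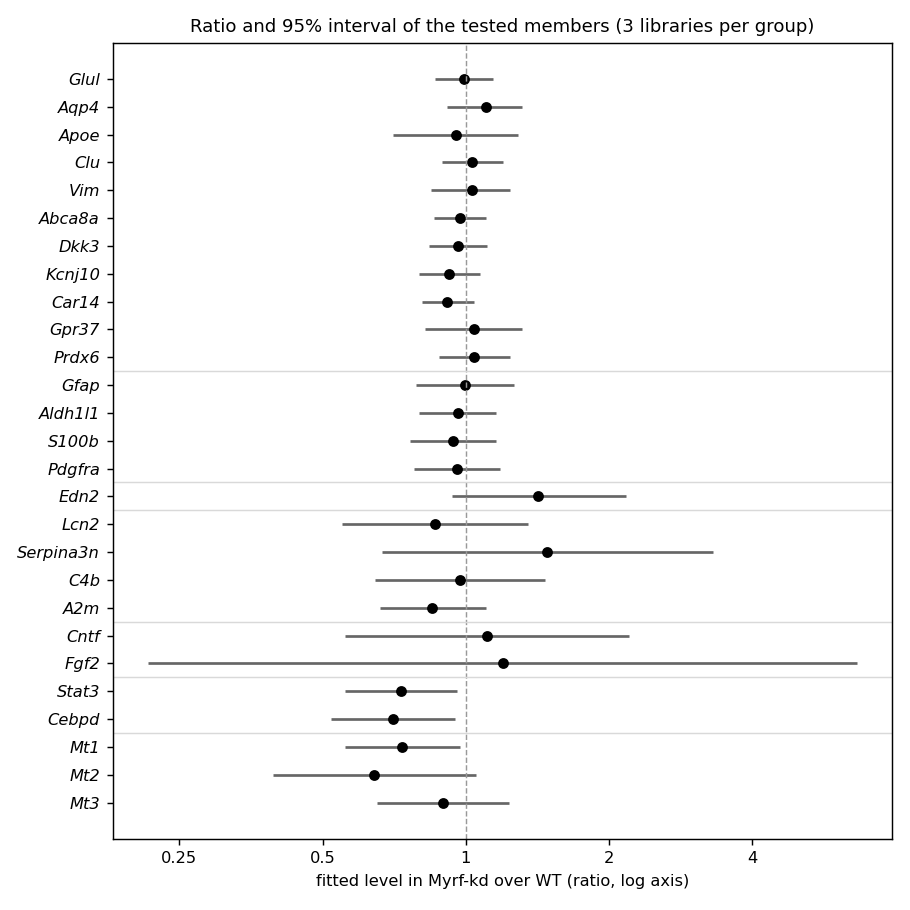
Fitted level in Myrf-kd over WT for the 27 tested genes, on a log axis, with 95% intervals of each single gene from edgeR (3 libraries per group), in the order of the roles. The Mueller glia and astrocyte markers lie close to 1, Fgf2 has the widest interval (0.215 to 6.64), and the intervals of Stat3, Cebpd and Mt1 lie below 1 before adjustment for the number of genes.

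The other Mueller glia genes, a list of 20 that holds no member, were all tested and 0 passed, with 7 estimates higher and 13 lower and a median log2 fold change of −0.05. In 4 of them, or 20% beside 14.6% of all tested genes, the groups stood apart. Kcnj2, an inward-rectifying potassium channel gene, was at 2.05, 1.94 and 2.06 FPKM in Myrf-kd and at 1.59, 1.47 and 1.65 FPKM in WT (edgeR log2 fold change 0.34 ± 0.10 SE, adjusted p = 0.666). Sox8, a transcription factor of the SoxE group, was at 4.32, 4.54 and 4.97 FPKM in Myrf-kd and at 3.89, 3.0 and 3.97 FPKM in WT (edgeR log2 fold change 0.33 ± 0.13 SE, adjusted p = 0.666). In both genes every Myrf-kd library lay above every WT library. Slc1a3, a glutamate transporter of Mueller glia, averaged 21.7 ± 0.777 FPKM in Myrf-kd, against 22.6 ± 0.128 FPKM in WT. Rlbp1, the retinaldehyde carrier of Mueller glia and pigment epithelium, averaged 87.6 ± 2.02 FPKM in Myrf-kd, against 96.7 ± 6.06 FPKM in WT, with groups that did not overlap.

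Astrocyte markers were low, and their groups overlapped. Gfap (ENSMUSG00000020932, chromosome 11, 102887336 to 102897200, minus strand, GRCm38) encodes the intermediate filament protein that resting retina holds in astrocytes and that Mueller glia gain in gliosis. Gfap was at 4.4, 4.11 and 3.63 FPKM in Myrf-kd 1, 2 and 3 and at 4.53, 4.23 and 3.31 FPKM in WT 1, 2 and 3. The values interleaved, and the ratio was 0.994 with a 95% interval from 0.786 to 1.26, from 263 to 355 fragments per library. The annotated non-coding gene Gm26668 covers the Gfap locus on the opposite strand at 0.919 to 1.75 CPM. Gfap was at 16.4 to 22 CPM on the same scale. The labels do not state whether the libraries kept strand, without which reads of overlapping genes on opposite strands cannot be told apart.

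The RefSeq promoter of Gfap is shown because Stat3 is known to drive this gene in astrocytes. It runs from 250 bases before to 50 bases after the annotated start (GRCm38.p6, chr11:102897151-102897450, minus strand), and capitals mark the only match to TTCNNNGAA, the paired half-sites that STAT proteins bind, searched on both strands.
Gfap: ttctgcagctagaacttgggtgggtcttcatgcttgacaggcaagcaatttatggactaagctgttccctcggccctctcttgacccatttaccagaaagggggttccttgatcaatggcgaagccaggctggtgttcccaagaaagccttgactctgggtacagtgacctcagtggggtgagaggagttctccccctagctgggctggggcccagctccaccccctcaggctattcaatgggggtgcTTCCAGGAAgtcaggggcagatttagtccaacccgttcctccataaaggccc
Matches were found in 3 of the 27 members with a RefSeq window, Gfap, Socs3 and Steap4, and in 8.3% of all 32851 windows of the same length. The match in Gfap begins at base −2 from the annotated start and runs across it. Whether Stat3 acts on Gfap through this match or from outside the window was not tested. A match is only a run of letters and says nothing of binding in these retinas.

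S100b, a calcium-binding protein of astrocytes and Mueller glia, was at 5.12, 5.38 and 5.64 FPKM in Myrf-kd and at 5.87, 6.07 and 4.98 FPKM in WT. Its log2 fold change was −0.09 ± 0.13 (SE) with an edgeR adjusted p of 0.866. Dip2a overlaps S100b on the opposite strand over 1731 bases, at 50.5 to 61.9 CPM in Myrf-kd against 42.4 to 48.9 CPM in WT. On the same scale S100b was at 8.67 to 10.7 CPM, and the counts of either gene may hold reads of the other. Aldh1l1, an enzyme of folate metabolism, was at 3.38, 3.55 and 2.85 FPKM in Myrf-kd and at 3.61, 3.14 and 3.29 FPKM in WT (edgeR log2 fold change −0.05 ± 0.11 SE, adjusted p = 0.913). Pdgfra, the growth factor receptor that marks retinal astrocytes, averaged 1.06 ± 0.0903 FPKM in Myrf-kd, against 1.09 ± 0.107 FPKM in WT. All 4 estimates were lower and none by more than 0.09 on the log2 scale. Of 8 other astrocyte genes 3 were tested and 0 passed. Slc1a2, a glutamate transporter gene, was at 28.7, 10.8 and 31.0 FPKM in Myrf-kd 1, 2 and 3 and at 28.5, 28.6 and 30.2 FPKM in WT 1, 2 and 3, so that Myrf-kd 2 alone was low (edgeR adjusted p = 0.819). Agt, the angiotensinogen gene, averaged 3.69 FPKM in Myrf-kd, against 4.16 FPKM in WT (edgeR adjusted p = 0.777).

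Edn2 encodes endothelin 2, which stressed mouse photoreceptors release, and Ednrb the receptor through which Mueller glia receive it. Edn2 (chromosome 4, 120161206 to 120167360, plus strand) was at 1.84, 2.87 and 3.34 FPKM in Myrf-kd 1, 2 and 3 and at 2.15, 1.54 and 1.89 FPKM in WT 1, 2 and 3. Myrf-kd 2 and 3 lay above all WT libraries and Myrf-kd 1 below the highest and middle of them. The ratio was 1.42 with a 95% interval from 0.936 to 2.17 (edgeR log2 fold change 0.51 ± 0.25 SE, adjusted p = 0.697), from 33 to 96 fragments per library. Ednrb lay below the filter, at 0.499, 1.15 and 1.19 FPKM in Myrf-kd and at 1.1, 1.04 and 0.517 FPKM in WT. It split into a low library and 2 higher ones within each group. Of 5 other genes of the endothelin system 3 were tested, all with lower estimates, and 0 passed. The converting enzyme genes Ece2 and Ece1 had ratios of 0.895 and 0.936 (edgeR adjusted p = 0.735 and 0.793).

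The genes of injury-induced proteins averaged at most 4.17 FPKM in either group. Serpina3n, a secreted inhibitor of serine proteases and among the strongest reactive glia genes of the mouse, was at 7.57, 2.21 and 2.75 FPKM in Myrf-kd 1, 2 and 3 and at 3.73, 2.17 and 2.48 FPKM in WT 1, 2 and 3. Only Myrf-kd 1 exceeded the WT libraries, and without it the log2 fold change of 0.57 ± 0.48 (SE, edgeR adjusted p = 0.774) became −0.19 (edgeR adjusted p = 0.833). Lcn2, a siderophore-binding lipocalin, was at 2.75, 1.82 and 1.3 FPKM in Myrf-kd and at 2.19, 2.12 and 2.43 FPKM in WT, with Myrf-kd libraries at both ends. A2m, a broad protease inhibitor, was at 1.76, 1.29 and 1.35 FPKM in Myrf-kd and at 1.61, 1.63 and 1.88 FPKM in WT (edgeR log2 fold change −0.24 ± 0.15 SE, adjusted p = 0.731). C4b, a component of the complement cascade, averaged 1.13 ± 0.311 FPKM in Myrf-kd, against 1.15 ± 0.225 FPKM in WT.

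Timp1, an inhibitor of matrix metalloproteinases, lay below the filter with 0.438 to 1.28 FPKM in Myrf-kd, against 0.618 to 1.01 FPKM in WT, from 8 to 22 fragments per library. Timp1 lies wholly inside Syn1, which runs on the opposite strand at 118 to 141 CPM, so its few fragments are uncertain without strand. Steap4, a metalloreductase, was at 0.287, 0.364 and 0.407 FPKM in Myrf-kd and at 0.343, 0.263 and 0.171 FPKM in WT. Of 29 other reactive astrocyte genes, which include Cxcl10, C3 and Cd44, 11 were tested and 0 passed, with 5 estimates higher and 6 lower and a median log2 fold change of −0.01. Gbp2, an interferon-induced GTPase, was at 0.855, 0.89 and 0.943 FPKM in Myrf-kd and at 1.28, 1.05 and 1.24 FPKM in WT (edgeR log2 fold change −0.43 ± 0.16 SE, adjusted p = 0.666). H2-D1, a class I histocompatibility gene, was at 13.8, 14.2 and 14 FPKM in Myrf-kd and at 15.1, 15.3 and 15.8 FPKM in WT (edgeR log2 fold change −0.16 ± 0.07 SE, adjusted p = 0.675). These 2 of the 11 (18.2%) stood apart between the groups, lower in Myrf-kd, beside 14.6% of all tested genes (7.5% lower). H2-D1 has near-identical class I copies that can share its reads.

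The cytokines were at the limit of what this depth shows. Cntf, a survival factor for photoreceptors, was at 3.28, 1.13 and 3.58 FPKM in Myrf-kd and at 2.76, 2.09 and 2.31 FPKM in WT, with the Myrf-kd libraries on both sides (edgeR log2 fold change 0.15 ± 0.42 SE, adjusted p = 0.938). The annotated Cntf gene lies wholly inside Zfp91 on the same strand, over 1973 bases, and Zfp91 was at 224 to 285 CPM against 1.39 to 4.46 CPM for Cntf, so the counting may have split reads between them. Lif, which Mueller glia of the mouse make after photoreceptor injury, was at 0.173, 0.078 and 0.0317 FPKM in Myrf-kd and at 0.177, 0.0421 and 0.183 FPKM in WT, from 3 to 16 fragments. A difference in Lif was not detectable at this depth. Osmr, the receptor for oncostatin M, averaged 0.714 ± 0.0901 FPKM in Myrf-kd, against 0.756 ± 0.0765 FPKM in WT.

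Fgf2 (chromosome 3, 37348346 to 37410108, plus strand), a growth factor that rises in stressed retina, lay at 2 levels that crossed the groups. It was at 3.68, 0.401 and 4.14 FPKM in Myrf-kd 1, 2 and 3 and at 3.52, 3.08 and 0.24 FPKM in WT 1, 2 and 3. Myrf-kd 2 and WT 3 were low and the other 4 libraries high, so the ratio of 1.2 had a 95% interval from 0.215 to 6.64 (edgeR log2 fold change 0.26 ± 1.04 SE, adjusted p = 0.961). Of the opposite-strand genes that overlap Fgf2, the gene Nudt6 had levels of 3.12, 2.74 and 1.27 CPM in Myrf-kd 1, 2 and 3, against 1.66, 1.59 and 2.41 CPM in WT 1, 2 and 3, and Fgf2os lay between 1.17 and 2.89 CPM in all 6. On the same scale Fgf2 was at 3.13 CPM in Myrf-kd 2, next to 1.94 CPM in WT 3, with 24.8 to 32.6 CPM in the other 4 libraries. Of 12 other FGF signalling genes 10 were tested and 0 passed, with 6 estimates higher and 4 lower. Etv4, a transcription factor induced by FGF signals, was at 2.51, 2.55 and 1.48 FPKM in Myrf-kd and at 2.99, 3.0 and 2.76 FPKM in WT (edgeR adjusted p = 0.696). Spry4, a feedback inhibitor, was at 1.2, 1.61 and 2.82 FPKM in Myrf-kd and at 1.93, 0.827 and 0.712 FPKM in WT (edgeR adjusted p = 0.731).

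Stat3 (ENSMUSG00000004040, chromosome 11, 100885098 to 100939540, minus strand, GRCm38), the factor through which gp130 cytokines switch on gliosis, was at 10, 8.33 and 6.22 FPKM in Myrf-kd 1, 2 and 3 and at 11.1, 10.4 and 11.7 FPKM in WT 1, 2 and 3. Every Myrf-kd library lay below every WT library, with Myrf-kd 1 closest to them. The ratio was 0.73 with a 95% interval from 0.557 to 0.957 (edgeR log2 fold change −0.45 ± 0.16 SE, unadjusted p = 0.0287, adjusted p = 0.666). Without Myrf-kd 3 the log2 fold change was −0.29 (edgeR adjusted p = 0.720), and with both female libraries left out it was −0.25 (edgeR adjusted p = 0.887). The summed cornea markers were lower in the same libraries, and their part in these values was not tested.

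Cebpd (ENSMUSG00000071637, chromosome 16, 15887286 to 15891031, plus strand, GRCm38), a leucine zipper transcription factor of the acute phase, was at 0.977, 0.745 and 1.09 FPKM in Myrf-kd and at 1.37, 1.25 and 1.34 FPKM in WT. The groups did not overlap, and the ratio was 0.704 with a 95% interval from 0.52 to 0.951 (edgeR log2 fold change −0.51 ± 0.18 SE, unadjusted p = 0.0284, adjusted p = 0.666). Between 50 and 101 fragments per library lay behind it. Spidr overlaps Cebpd on the opposite strand over 1808 bases and was also lower, at 9.83 to 10.1 CPM in Myrf-kd against 11.6 to 12.2 CPM in WT, and the counts of either gene may hold reads of the other.

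Socs3, the feedback inhibitor that Stat3 induces, lay below the filter, at 1.13, 1.11 and 0.907 FPKM in Myrf-kd and at 0.998, 0.85 and 0.58 FPKM in WT, with overlapping groups. Bcl3, a nuclear partner of NF-kappaB, was at 0.114 and 0.151 FPKM in Myrf-kd 1 and 3 and was listed at 0 in Myrf-kd 2, where 3 fragments would be 0.189 CPM. In WT 1, 2 and 3 Bcl3 was at 0.122, 0.0786 and 0.0363 FPKM, at most 8 fragments in any library. Of 22 other genes of gp130 signalling 14 were tested and 0 passed, with 6 estimates higher and 8 lower and a median log2 fold change of −0.06. Jak1, the kinase that acts upstream of Stat3, had a ratio of 0.918 with a 95% interval from 0.8 to 1.05 (edgeR adjusted p = 0.733). Socs2, a related feedback inhibitor, had a ratio of 1.16 with an interval from 0.924 to 1.47 (edgeR adjusted p = 0.723).

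**Figure D4:**
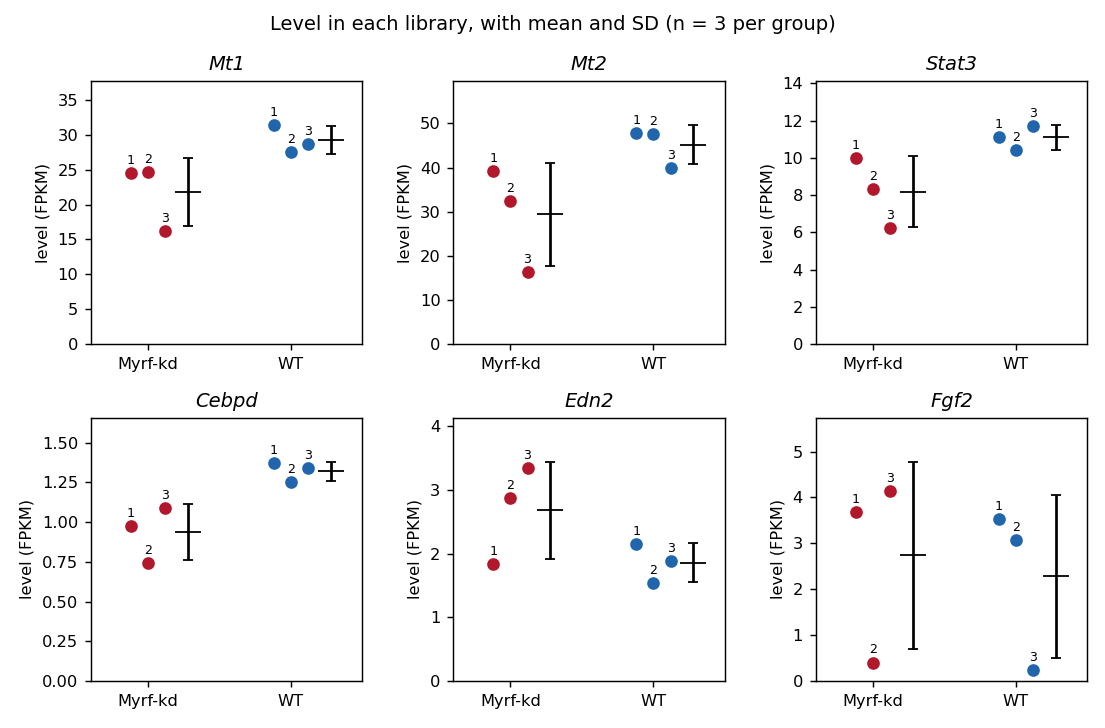
Level of 6 genes in each library in FPKM, with the replicate number beside each point and the mean ± SD of 3 libraries in black, Myrf-kd left of WT. Mt1, Mt2, Stat3 and Cebpd are lower in all 3 Myrf-kd libraries, Edn2 overlaps, and Fgf2 is low in Myrf-kd 2 (0.401 FPKM) and WT 3 (0.24 FPKM).

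Metallothioneins are small cysteine-rich proteins that bind zinc and copper. Mt1 and Mt2 rise with metals, glucocorticoids and Stat3 activity in reactive glia, and Mt3 is the form of the nervous system. Their genes lie side by side on the plus strand of chromosome 8 (GRCm38), Mt3 at 94152607 to 94154146, Mt2 at 94172664 to 94173568 and Mt1 at 94179082 to 94180327. The RefSeq promoter windows of all 3 are shown (GRCm38.p6, chr8:94178839-94179138 for Mt1, chr8:94172368-94172667 for Mt2 and chr8:94152357-94152656 for Mt3). They were chosen because in Mt1 and Mt2 every Myrf-kd library lay below every WT library, while the groups of Mt3 overlapped. Capitals mark matches on either strand to TGCGCNC or TGCACNC, the core of the metal response element to which the zinc sensor Mtf1 binds.
Mt1: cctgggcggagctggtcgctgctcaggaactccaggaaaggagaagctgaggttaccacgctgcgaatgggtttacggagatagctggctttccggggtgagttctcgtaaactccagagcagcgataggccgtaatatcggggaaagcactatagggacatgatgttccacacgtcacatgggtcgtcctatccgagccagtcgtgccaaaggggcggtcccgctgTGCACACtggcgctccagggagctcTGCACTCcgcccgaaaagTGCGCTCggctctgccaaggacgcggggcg
Mt2: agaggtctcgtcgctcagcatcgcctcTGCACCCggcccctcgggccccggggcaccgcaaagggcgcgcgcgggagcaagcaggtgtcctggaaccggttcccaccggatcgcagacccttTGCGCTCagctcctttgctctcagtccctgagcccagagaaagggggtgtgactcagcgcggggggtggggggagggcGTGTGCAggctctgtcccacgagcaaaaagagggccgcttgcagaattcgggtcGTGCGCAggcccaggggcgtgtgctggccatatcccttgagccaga
Mt3: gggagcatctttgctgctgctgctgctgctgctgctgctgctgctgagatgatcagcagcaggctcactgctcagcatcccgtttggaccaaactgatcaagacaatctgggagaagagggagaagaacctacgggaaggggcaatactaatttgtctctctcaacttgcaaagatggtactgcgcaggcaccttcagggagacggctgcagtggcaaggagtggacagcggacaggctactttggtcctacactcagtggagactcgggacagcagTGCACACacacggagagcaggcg
The window of Mt1 held 3 matches, that of Mt2 4 and that of Mt3 1, and no matches overlapped one another. At least 1 match was present in 25.7% of all 32851 windows, at least 3 in 1.97% and at least 4 in 0.517%. Among the 27 members with a RefSeq window, 9 held a match. As for Gfap, a match is only a run of letters, and its part in the levels was not tested.

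Mt2 was at 39.3, 32.4 and 16.4 FPKM in Myrf-kd 1, 2 and 3 and at 47.8, 47.7 and 40.0 FPKM in WT 1, 2 and 3. Mt1 was at 24.5, 24.6 and 16.2 FPKM in Myrf-kd 1, 2 and 3 and at 31.4, 27.5 and 28.7 FPKM in WT 1, 2 and 3. In both genes all Myrf-kd libraries lay below all WT libraries, and Myrf-kd 3 was by far the lowest. The ratio was 0.642 for Mt2 with a 95% interval from 0.393 to 1.05 (edgeR log2 fold change −0.64 ± 0.30 SE, adjusted p = 0.685). It was 0.736 for Mt1 with an interval from 0.558 to 0.971 (edgeR log2 fold change −0.44 ± 0.17 SE, unadjusted p = 0.0347, adjusted p = 0.666). Without Myrf-kd 3 the log2 fold change was −0.35 for Mt2 and −0.27 for Mt1 (edgeR adjusted p = 0.720 for both). The antisense gene Gm45774, which overlaps Mt2, measured 3.91, 4.19 and 2.27 CPM in Myrf-kd 1, 2 and 3, against 4.89, 5.61 and 4.93 CPM in WT 1, 2 and 3. The overlap spans 749 bases, and the counts of either gene may hold reads of the other. Myrf-kd 3 was also the library with the highest lens markers, and the cornea markers were lower in all 3 Myrf-kd libraries; their part in the metallothionein values was not tested.

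Mt3 was at 4.92, 6.99 and 7.9 FPKM in Myrf-kd 1, 2 and 3 and at 6.95, 6.78 and 8.12 FPKM in WT 1, 2 and 3. Its groups overlapped, with Myrf-kd 1 the lowest library and Myrf-kd 3 next to the highest, an order unlike that of Mt1 and Mt2 (ratio 0.895, interval 0.65 to 1.23). Of 6 other metal response genes 4 were tested and 0 passed. Mtf1, the zinc-sensing transcription factor, was at 5.2, 6.88 and 5.69 FPKM in Myrf-kd and at 4.77, 4.57 and 3.73 FPKM in WT (edgeR log2 fold change 0.42 ± 0.13 SE, adjusted p = 0.666). Slc30a1, the zinc exporter of the plasma membrane and a target of Mtf1, was at 9.36, 8.57 and 6.89 FPKM in Myrf-kd and at 9.95, 10.1 and 9.62 FPKM in WT (edgeR log2 fold change −0.28 ± 0.12 SE, adjusted p = 0.666). Slc39a14, a metal ion importer gene named for its values, was at 3.39, 3.29 and 3.09 FPKM in Myrf-kd and at 2.88, 2.93 and 3.01 FPKM in WT. These 3 of the 4 tested genes (75%, beside 14.6% of all tested genes) stood apart between the groups, Mtf1 and Slc39a14 higher and Slc30a1 lower in Myrf-kd, and Mt4 was listed at 0 in all 6 libraries. Over all 102 other pathway genes, 65 were tested and 0 passed by edgeR, with 28 estimates higher and 37 lower. Of these 65 genes 4 had an unadjusted edgeR p under 0.05, beside 7.49% of all tested genes. The groups stood apart in 16.9% of these 65 genes, beside 14.6% of all.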

How the data were processed

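Retinal RNA was sequenced in 3 Myrf-kd and 3 WT libraries, grouped by their titles. Trizol extraction and Illumina library preparation are given per the labels' protocols. The submitters' processing notes list HISAT2 2.0, StringTie 1.3.0, Bowtie 0.12.2 and GRCm38 without saying what each was used for. The authors deposited FPKM and counts for 55450 genes; per the file headers FPKM is scaled by length and depth. The deposited counts were read as estimated counts of which 4 units are about 1 fragment, since 4 was the commonest value above 0. Rounding changed 0 of them.

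The 13673 genes that averaged 1 FPKM or more were tested with edgeR 4.0.16 (quasi-likelihood test, TMM, genotype only), two-sided, with Benjamini-Hochberg adjustment at 0.05, and the script was tested on simulated data. The biological coefficient of variation was 20.3%. SEs are the log2 fold change over the root of F, and 95% intervals are those of single genes and are not adjusted. Alternatives used DESeq2 1.42.0, limma 3.58.1 on log2(FPKM + 1) and log2(FPKM + 0.1), other filters and scaling, a replicate block and omitted libraries. Libraries of a group differed beyond sampling noise (chi-square per degree of freedom at least 18.7).

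The members and lists were chosen with earlier results of these data known. Full statistics are given for the 2 tested members of each role, and the 2 genes of each other list, with the smallest p; other genes are named by their roles and were chosen after their values were seen. Promoters are from RefSeq, matched by symbol for 27 of 34 members. The limit of 3 fragments that a count of 0 allows covers counting error only.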

Additional observations from a re-analysis of the deposited data

How the results depend on the processing

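Of the members tested 0 passed in the test and in each of the 15 alternatives, and 0 of the other pathway genes tested. The median log2 fold change of the tested members lay between −0.11 (without Myrf-kd 3) and −0.02 (without WT 2), within the spread of the libraries' medians (0.0862) of −0.05. The count of all genes past the threshold, 6 by edgeR, became 2 at a mean FPKM of at least 5, 53 by DESeq2, 22 with both libraries numbered 3 left out, and between 9 and 16 with single libraries left out. With the replicate number as a replicate block it was 0, and the members' median was −0.06. The deviations of same-numbered libraries from their group means correlated at −0.0464, 0.0293 and 0.101 for numbers 1, 2 and 3. The pair numbered 3, both female, had the highest of all 9 correlations, while Myrf-kd 1 correlated best with WT 2 (0.0657) and Myrf-kd 2 with WT 1 (0.0853). As not every pair exceeded 0.1, the numbers were not used as pairs.

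Of 391 refits of the 27 genes with full statistics 0 passed and 11 changed sign, and the other 380 kept theirs. With single libraries left out the log2 fold change ranged from −0.19 to 0.88 for Serpina3n, −0.13 to 0.51 for Cntf, −0.28 to 0.77 for Fgf2, −0.58 to 0.02 for Slc1a2 and −0.11 to 0.03 for Aldh1l1. Without Myrf-kd 1 it was −0.19 for Serpina3n, −0.03 for Cntf and −0.02 for Fgf2. Without Myrf-kd 3 it was 0.03 for Aldh1l1, −0.13 for Cntf and −0.16 for Fgf2. With both libraries numbered 3 left out it was 0.02 for Aldh1l1, −0.15 for Cntf and −0.70 for Fgf2. It was −0.28 for Fgf2 without WT 3 and 0.02 for Slc1a2 without Myrf-kd 2. The cause of these changes was not tested. Stat3, Cebpd, Mt1 and Mt2 kept a negative estimate in all alternatives, between −0.63 and −0.25, −0.63 and −0.26, −0.54 and −0.27, and −0.92 and −0.35 in that order. Depth limits Bcl3, Lif and Timp1, with at most 22 fragments in any library.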

Other observations

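The 2 levels of Fgf2 were compared with other genes, by a rule written after its values were seen. In 22 of 13673 tested genes, Fgf2 among them, the lowest library of each group lay below 1/5 of the next one, and in 1 of these, Fgf2, the low libraries were Myrf-kd 2 and WT 3. In 72 other genes such a gap occurred among the Myrf-kd libraries alone and in 65 among the WT libraries alone.

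Some genes of the gp130 and reactive astrocyte lists lay below the filter and were noticed after their values were seen. Ctf1, which encodes the gp130 cytokine cardiotrophin, was at 0.428, 0.948 and 1.28 FPKM in Myrf-kd 1, 2 and 3 and at 0.32, 0.346 and 0.318 FPKM in WT 1, 2 and 3, with groups that did not overlap (edgeR without filter, adjusted p = 0.718). Emp1, which encodes an epithelial membrane protein, was at 0.562, 0.589 and 0.402 FPKM in Myrf-kd and at 1.08, 1.33 and 0.765 FPKM in WT (edgeR without filter, adjusted p = 0.718). The cornea markers were lower in the same libraries as Emp1, and their part in it was not tested. Mir8114 is a microRNA gene annotated within Glul on the same strand, over 93 bases. It was listed at 59.2, 58.2 and 0.0147 CPM in Myrf-kd 1, 2 and 3, against 53, 58.6 and 45.8 CPM in WT 1, 2 and 3. Glul measured 2850.5, 2725 and 3148 CPM in Myrf-kd 1, 2 and 3, against 2721, 3114 and 2958 CPM in WT 1, 2 and 3. The counting may have split reads between the 2 genes, so the low value in Myrf-kd 3 need not be a lower level of the microRNA. Its cause was not tested.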
